A study of Danio rerio with 6 samples.

Results

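The fatty acid binding protein genes were taken as all rows whose gene name starts with fabp and a digit. They number 9 of the 12398 gene rows kept, namely fabp1a, fabp1b.1, fabp2, fabp3, fabp6, fabp7a, fabp7b, fabp10a and fabp11a, and all 9 had enough reads to be tested. RNA was sequenced from the proximal (S1) intestine, full thickness, of adult male wild-type Ekk zebrafish 2 weeks after surgery. In SBS fish the mid-intestine had been removed, the distal intestine ligated and a proximal ostomy left behind, whereas sham fish had a ventral laparotomy in which the bowel was not handled. The labels name no transgene or mutation, and the samples sequenced were those of each group with the most concentrated RNA. The deposited counts of SBS replicate 2 equal those of SBS replicate 1 in 12488 of 12488 rows, so both were counted as 1 library and 2 SBS libraries (replicates 1 and 3) were compared with 3 sham libraries. Other counts for SBS replicate 2 were published with the study and were not used here. SBS replicate 1 holds only even counts, and halving them changed no call on a fabp gene.

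Fatty acid binding proteins are small cytosolic carriers that hold long-chain fatty acids, bile acids or other hydrophobic ligands inside a barrel of beta strands. Vertebrates keep a set of them with distinct tissues. The intestinal form (fabp2) and the fabp1 forms are abundant in absorptive enterocytes, where dietary fat is taken up and re-esterified, and the ileal form (fabp6) carries bile acids in enterocytes further along the gut. The liver basic form (fabp10a) is the usual hepatocyte marker of fish and is absent from mammals. Other members are best known from muscle and heart (fabp3), from glia and the developing brain (fabp7a and fabp7b) and, in mammals, from fat cells, macrophages and vessels (Fabp4, of which fabp11a is a fish relative that RefSeq now lists as fabp4a).

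The 2 SBS libraries held 20377652 and 38867364 reads on genes, and the sham libraries between 38728394 and 47142289. Levels of a gene are given as CPM, its counts relative to a library size that TMM had adjusted for composition, and levels of different genes are compared as RPKM, which divides CPM by the gene length in kilobases. The TMM factors were 1.5 and 1.33 in SBS and 0.707 to 0.919 in sham. SBS was set against sham by the quasi-likelihood test of edgeR over 12381 genes, with Benjamini-Hochberg adjustment of p. A call required an adjusted p below 0.05 together with a log2 fold change (SBS over sham) of 1.5 or more in either direction. Of all genes tested 4.55% were called, 2.49% higher and 2.06% lower in SBS, and for 46.9% the libraries of the 2 groups did not overlap. Brush border markers were present in every library: the 14 absorptive enterocyte markers tested summed to 4668 and 12264 CPM in SBS, against 30080 to 33763 CPM in sham.

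The family was dominated in sham intestine by its enterocyte forms, and the make-up of the pool was different in SBS. All fabp genes together took 0.139% of gene reads in SBS replicate 1 (Wilson 95% interval 0.138% to 0.141%) and 0.297% in SBS replicate 3 (0.295% to 0.298%). In sham they took 1.23% (1.23% to 1.23%), 1.23% (1.22% to 1.23%) and 0.895% (0.892% to 0.898%). These intervals cover counting error only and not the spread between libraries. Reads carry no molecular identifiers, so copies of a molecule cannot be told apart and all the intervals may be too narrow. The counts of SBS replicate 1 are even throughout, so the reads behind them may be fewer and its interval too narrow for that reason also. Summed RPKM of the family was 1660 and 4006 in SBS, against 27507, 22653 and 21398 in sham. Both SBS libraries lay below all sham libraries.

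**Figure D1:**
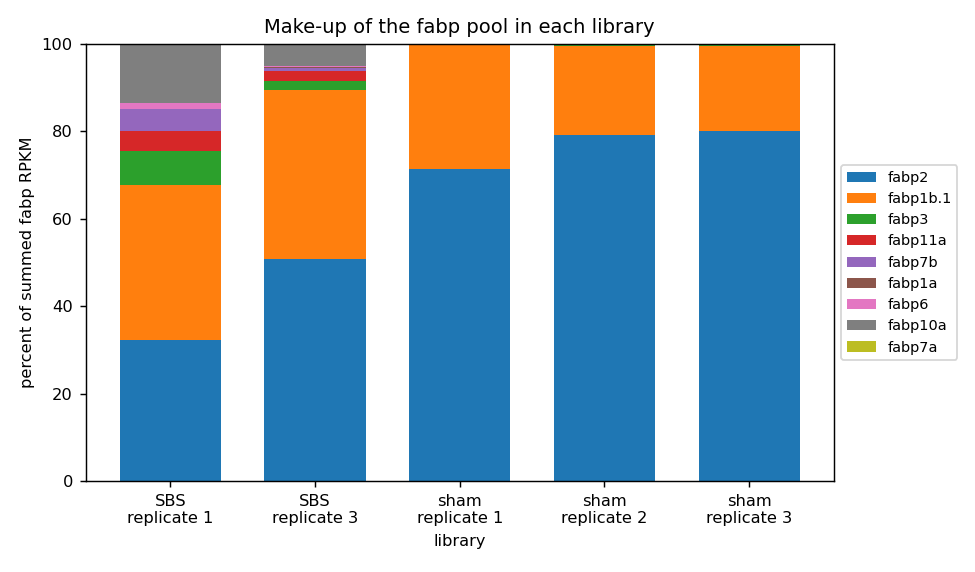
Share of each fabp gene in the summed RPKM of the family (percent, vertical axis) in each library (bars). fabp2 and fabp1b.1 together hold 67.7% and 89.6% in the SBS libraries and 99.5% to 99.7% in the sham libraries.

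The share of fabp2 in the pool was 32.2% and 50.8% in SBS, against 71.3%, 79.2% and 80.1% in sham. That of fabp1b.1 was 35.5% and 38.8% in SBS, against 28.4%, 20.4% and 19.4% in sham. The order of these forms was therefore not the same in the SBS libraries, fabp1b.1 standing at 589 RPKM beside 535 for fabp2 in replicate 1 and at 1553 beside 2035 in replicate 3. The liver form fabp10a made up 13.3% and 5.03% of the SBS pools and at most 0.0410% of a sham pool. The muscle form fabp3 took 7.90% and 1.94% of the SBS pools, against 0.123% to 0.226% in sham.

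Of the 9 genes, 1 was called, fabp10a, and it was higher in SBS. Of all genes tested 4.55% were called in either direction and 2.49% were called higher. For 6 of the 9 the groups did not overlap, 4 with both SBS libraries above every sham library (22.6% of all genes tested) and 2 with both below (24.3% of all genes). The fitted log2 fold change was positive for 6 and negative for 3, with a median of 1.43, whereas the median of all genes tested was 0.00038. An unadjusted p under 0.05 was reached by 7 members in the quasi-likelihood test, and by 28.9% of all genes tested. Levels from highest to lowest in sham followed the order fabp2, fabp1b.1, fabp3, fabp11a, fabp7b, fabp1a, fabp6, fabp10a and fabp7a by mean RPKM. Neighbours in the lower part of this order, from fabp11a on, overlapped between sham libraries. In SBS the order of mean RPKM was fabp2, fabp1b.1, fabp10a, fabp3, fabp11a, fabp7b, fabp6, fabp1a and fabp7a, and fabp10a lay below both enterocyte forms and above all others in each SBS library.

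**Figure D2:**
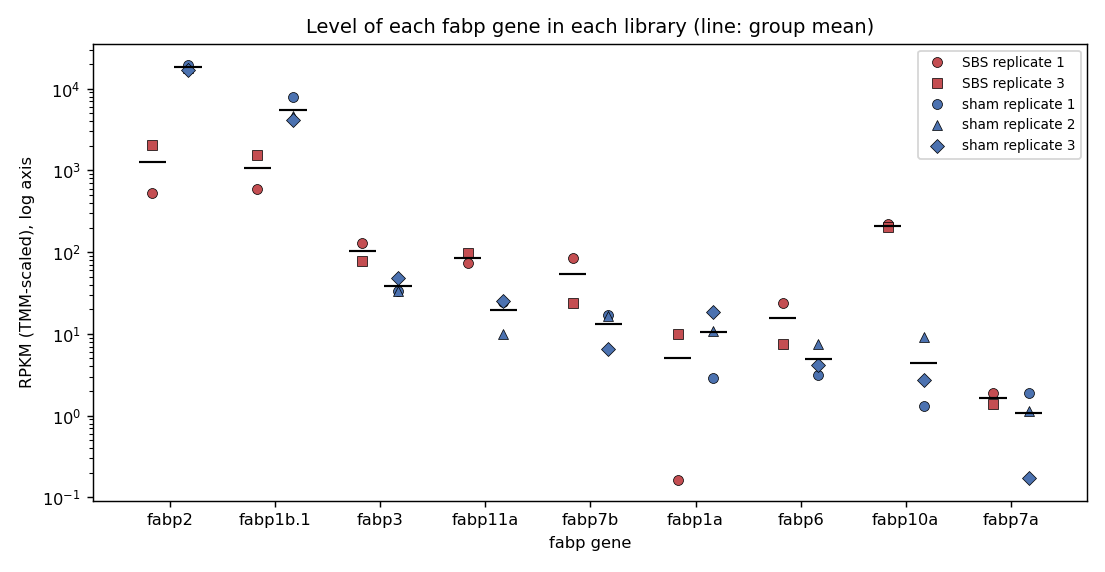
RPKM on a log axis (vertical) of each fabp gene (horizontal, ordered by the sham mean) in each library, SBS libraries left of sham libraries, with a line at each group mean. The plot shows fabp2 at 535 and 2035 RPKM in SBS below 17140 to 19622 in sham, and fabp10a at 221 and 201 RPKM in SBS above 1.31 to 9.28 in sham.

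The intestinal form fabp2 (ENSDARG00000006427, chromosome 1) had 331 and 1262 CPM in SBS, against 12166, 11124 and 10627 CPM in sham. The sham libraries lay within 1.14-fold of each other, the SBS libraries differed 3.81-fold, and the lowest sham library was still 8.42-fold above the higher SBS library. The log2 fold change was -3.83 (standard error, SE, 0.76, edgeR quasi-likelihood adjusted p = 0.0521), so that fabp2 missed the threshold for a call. Each SE was derived from the test, as the size of the log2 fold change divided by the square root of the F statistic. Only 0.695% of all genes tested had a more negative log2 fold change. In sham fabp2 ranked 3rd to 6th of all genes by RPKM, and in SBS it ranked 158th in replicate 1 and 32nd in replicate 3. In bulk tissue, fewer enterocytes and less RNA per enterocyte cannot be told apart.

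Whether fabp2 was called turned on the test and on the settings of the fit. It was called lower by edgeR's likelihood ratio test (log2 fold change -3.83, adjusted p = 2.8e-05), by DESeq2's Wald test (-3.78, adjusted p = 1.86e-08), and by the quasi-likelihood test with 1 factor of unwanted variation (-3.48, adjusted p = 0.0262). Without SBS replicate 3 it was also called, at -5.09 (adjusted p = 0.00967 in the quasi-likelihood test), on the assumption that the remaining SBS library varies like sham. Over all alternatives the log2 fold change of fabp2 lay between -5.09 and -3.16.

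The tandem duplicate fabp1b.1 (ENSDARG00000059227, chromosome 8), a liver-type carrier that fish express in the intestine, had 278 and 733 CPM in SBS, against 3682, 2182 and 1960 CPM in sham. All sham libraries lay above both SBS libraries, by 2.67-fold at the closest. Its fitted log2 fold change was -2.37 (SE 0.62, edgeR quasi-likelihood adjusted p = 0.0827). The log2 fold change became -3.23 without SBS replicate 3, which leaves a single SBS library. The likelihood ratio test (adjusted p = 0.00534) and DESeq2's Wald test (adjusted p = 0.000604) called fabp1b.1 lower. In 12 of 17 alternatives fabp1b.1 was not called. RefSeq places the copy fabp1b.2 directly beside fabp1b.1. That copy was not analysed here, and how reads shared by the copies were counted is not stated, so the level of fabp1b.1 is uncertain to that extent.

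The third enterocyte-type carrier, fabp1a (ENSDARG00000019357, chromosome 5), had 0.131 and 7.99 CPM in SBS, against 2.30, 8.71 and 14.7 CPM in sham. The groups overlapped, since SBS replicate 3 lay inside the sham range while SBS replicate 1 held 4 counts. Since the counts of SBS replicate 1 are even throughout, the reads behind these 4 counts may be fewer. The log2 fold change of -1.07 (SE 1.44, quasi-likelihood adjusted p = 0.659) was -0.10 without SBS replicate 1 and -5.99 without SBS replicate 3. The SBS libraries differed 61.1-fold in fabp1a, more than in any other fabp gene.

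The 20 genes with the highest mean RPKM in sham included fabp2, in 5th place, and fabp1b.1, in 20th. All 20 had a negative log2 fold change, with a median of -1.86, and 17 lay lower in both SBS libraries than in every sham library. These genes were chosen by their sham level, so this is a description only. Among them 2 had a more negative log2 fold change than fabp2, both chitinases, chia.3 (-4.26, adjusted p = 0.0805) and chia.2 (-3.92, adjusted p = 0.0415 in edgeR's quasi-likelihood test).

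The genes that take up, activate and re-esterify fatty acids and pack them into lipoproteins share the work of fabp2 and were listed as 43 genes, of which 33 were tested. In SBS 3 were called higher and 7 lower, where 2.49% and 2.06% of all genes tested were called. The median log2 fold change of the 33 was -1.31. Both SBS libraries lay below all sham libraries for 22 of them and above for 7, where all genes tested gave 24.3% and 22.6%. Relative to the sham mean the median was -2.28 in SBS replicate 1 and -1.05 in SBS replicate 3. Only 2 listed genes had a more negative log2 fold change than fabp2.

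Those that fell were the fatty acid receptor cd36, the fatty acid transporters slc27a2a and slc27a4, the acyltransferases agpat2 and dgat2, the lipid transfer protein scp2a and the apolipoprotein apoa4a. The level of agpat2, which acylates lysophosphatidic acid, was 27.6 and 49.2 CPM in SBS, against 508 to 667 CPM in sham (log2 fold change -3.91, edgeR quasi-likelihood adjusted p = 0.0192). That of cd36 was 459 and 197 CPM in SBS, against 2337 to 3564 CPM in sham (-3.22, adjusted p = 0.0397). Those that rose were the transporter slc27a6, the lipid droplet coat protein plin2 and apoa1b. The droplet protein plin2 had 74.5 and 66.9 CPM in SBS, against 10.03 to 11.8 CPM in sham (log2 fold change 2.70, adjusted p = 0.0157). The apolipoprotein gene apoa1b had 5095 and 1637 CPM in SBS, against 0.903 to 10.4 CPM in sham (9.45, edgeR quasi-likelihood adjusted p = 0.0265).

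The members of this list with the highest mean level were the apolipoproteins apoa1a, apobb.1 and apoa4b.2, and none of these was called. Log2 fold changes were -2.97 for apoa1a (adjusted p = 0.123), -2.06 for apobb.1 (0.0829) and -1.31 for apoa4b.2 (0.430, all from edgeR's quasi-likelihood test). The most abundant member, apoa1a, had 2598 and 7957 CPM in SBS, against 68828, 13341 and 41496 CPM in sham.

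The genes whose profile over the 5 libraries was nearest to that of fabp2 were acsl5, mao and ugt1a2. Nearness was the root mean square difference of centred log2 CPM, which was 0.190 for acsl5, 0.196 for mao and 0.255 for ugt1a2. The first encodes an acyl-CoA synthetase that activates fatty acids, the second monoamine oxidase and the third a glucuronosyltransferase. Their log2 fold changes were -3.45, -3.42 and -3.54, and none of them was called (adjusted p = 0.0520, 0.0546 and 0.0704 in the quasi-likelihood test). With 5 libraries of which 2 stand apart from 3, many genes share such a profile.

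**Figure D3:**
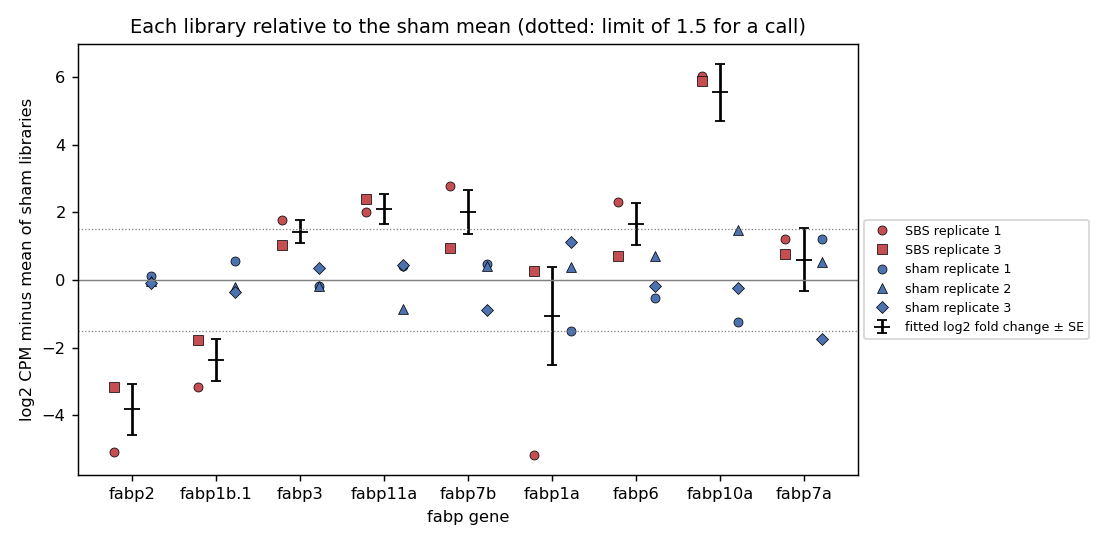
Log2 CPM of each library minus the mean of the sham libraries (vertical axis) for each fabp gene (horizontal axis), with SBS libraries left and sham libraries right of the fitted log2 fold change and its standard error. Both SBS points of fabp2 and fabp1b.1 lie below all sham points, while those of fabp10a lie 5.89 and 6.03 above the sham mean.

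The ileal form fabp6 (ENSDARG00000044566, chromosome 21) had 12.5 and 4.03 CPM in SBS, against 1.69, 4.05 and 2.19 CPM in sham. The groups overlapped, as SBS replicate 3 and sham replicate 2 held nearly equal levels, and only SBS replicate 1 stood above all sham libraries. For fabp6 the log2 fold change was 1.65 (SE 0.62, edgeR quasi-likelihood adjusted p = 0.152). It was 0.61 without SBS replicate 1 and 2.25 without SBS replicate 3. With 1 factor of unwanted variation removed it was 0.87.

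Within a library the ratio of fabp6 to fabp2 does not depend on scaling. On the log2 scale, per length, it was -4.50 and -8.07 in SBS, against -12.59, -11.20 and -12.02 in sham. The means differed by 5.65, with both SBS libraries above every sham library (exact two-sided permutation test, p = 0.2, the smallest that 2 against 3 libraries allow). In mean log2 CPM, SBS minus sham, fabp2 differed by -4.13 and fabp6 by 1.51. The groups overlapped in fabp6 but not in fabp2. In RPKM fabp6 remained far below fabp2 in all libraries, at 23.6 beside 535 in SBS replicate 1 where it came closest.

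Partners of fabp6 in ileal bile acid handling did not share a direction. Of 8 genes listed 5 were tested, and, where 4.55% of all genes tested were called, 1 was called, lower in SBS. This was nr0b2a (Shp), the repressor through which the bile acid receptor FXR acts, with 25.4 and 20.9 CPM in SBS, against 1199, 1722 and 1438 CPM in sham (log2 fold change -5.97, edgeR quasi-likelihood adjusted p = 0.0116). The ileal bile acid importer slc10a2 had 2.29 and 0.116 CPM in SBS, against at most 0.0583 CPM in sham (log2 fold change 5.20, adjusted p = 0.1004). The exporter subunit slc51a and the receptor nr1h4 (FXR) had log2 fold changes of 0.07 and 0.31 (adjusted p = 0.933 and 0.744), and that of the hormone fgf19 was 3.61 (adjusted p = 0.116) with at most 1.16 CPM in any library.

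In zebrafish the ileal-type enterocytes lie next to lysosome-rich enterocytes, which take up protein. Of 9 markers listed 6 were tested, and 3 were called higher in SBS and 0 lower, where 2.49% and 2.06% of all genes tested were called. The lysosomal proteases ctsba and ctsla and the endocytic adaptor dab2 rose, with log2 fold changes of 3.07, 3.82 and 3.54 (adjusted p = 0.0202, 0.0314 and 0.0280 from edgeR's quasi-likelihood test). The proteases ctsba and ctsla are also expressed by macrophages. Going the other way, ctsbb had 3.66 and 2.95 CPM in SBS, against 5.68 to 28.8 CPM in sham. Its log2 fold change was -2.17 (edgeR quasi-likelihood adjusted p = 0.130). The 6 markers summed to 4512 and 1835 CPM in SBS, against 516 to 655 CPM in sham, mostly from lgmn, ctsba and ctsla. The marker tmigd1 was at 0 counts in all sham libraries. The part of lysosome-rich enterocytes in the level of fabp6 was not tested.

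The genes nearest to fabp6 in profile were sat2a, parvg and znf710a, at root mean square differences of 0.154, 0.160 and 0.167. Of these sat2a had at most 0.327 CPM, so its profile rests on few reads. The leukocyte parvin parvg had 55.7 and 13.6 CPM in SBS, against 6.32, 14.8 and 9.75 CPM in sham (log2 fold change 1.75, adjusted p = 0.148). It overlapped between groups as fabp6 did, which follows from its choice by profile in these same libraries.

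**Figure D4:**
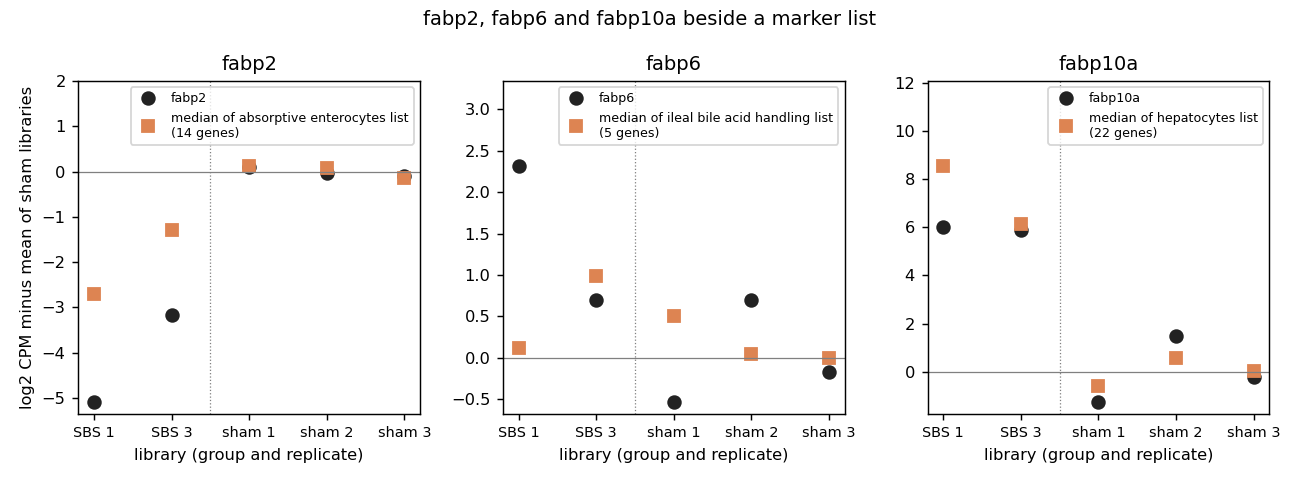
Log2 CPM minus the sham mean (vertical axis) in each library (horizontal axis) for fabp2, fabp6 and fabp10a (circles) and for the median of a marker list (squares). fabp10a lies at 6.03 and 5.89 in SBS beside a hepatocyte median of 8.56 and 6.13, and fabp2 at -5.09 and -3.16 beside an enterocyte median of -2.71 and -1.296.

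The liver form fabp10a (ENSDARG00000038439, chromosome 16) rose in SBS. It had 98.4 and 89.6 CPM in SBS, against 0.583, 4.13 and 1.23 CPM in sham, and the lower SBS library exceeded the highest sham library 21.7-fold. Counts were 3010 and 4619 in SBS, against 20, 147 and 41 in sham. The SBS libraries differed 1.098-fold, the smallest difference among the fabp genes, and the sham libraries 7.09-fold. Its log2 fold change was 5.56 (SE 0.84, edgeR quasi-likelihood adjusted p = 0.0295), and 1.85% of all genes tested had a larger value.

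With SBS replicate 1 left out the log2 fold change of fabp10a was 5.49, and with SBS replicate 3 left out it was 5.63. The call was lost without sham replicate 1 (5.13, adjusted p = 0.0832), sham replicate 2 (6.74, 0.0833) or sham replicate 3 (5.33, 0.133). In these fits edgeR's quasi-likelihood test called 0 genes of the whole table although 2214, 2660 and 2442 had an unadjusted p under 0.05. The log2 ratio of fabp10a to fabp2 was -1.27 and -3.34 in SBS, against -13.87, -10.92 and -12.60 in sham, a difference of 10.16 (exact two-sided permutation test, p = 0.2, the smallest possible).

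Markers of hepatocytes moved with fabp10a. Of 24 listed genes 22 were tested, with a median log2 fold change of 8.27. Among these 18 were called higher and 0 lower, against 2.49% and 2.06% of all genes tested. The groups did not overlap for 20 with SBS higher and for 1 with SBS lower, against 22.6% and 24.3% of all genes tested. The tested markers summed to 25974 and 6907 CPM in SBS, against 5967 to 12801 CPM in sham, so that by this sum SBS replicate 3 lay inside the sham range. No tested marker was at 0 counts in all sham libraries, and fibrinogen chains such as fga had 2677 and 521 CPM in SBS, against 0.553 to 2.45 CPM in sham. The log2 fold change of fabp10a was smaller than that of 19 of the 22. The list differed more between the SBS libraries (8.56 in replicate 1 and 6.13 in replicate 3 above the sham mean) than fabp10a did (6.03 and 5.89). Whether liver cells were part of the SBS samples was not tested.

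The genes nearest to fabp10a in profile were uox, si:rp71-15k1.1 and hpda, at root mean square differences of 0.434, 0.526 and 0.556 on the log2 scale, and all 3 rose. Urate oxidase (uox) had 36.4 and 20.4 CPM in SBS, against 0.0583, 0.843 and 0.420 CPM in sham (log2 fold change 5.996, edgeR quasi-likelihood adjusted p = 0.0293). The tyrosine-degrading enzyme hpda had 128 and 87.0 CPM in SBS, against 0.408, 2.16 and 1.92 CPM in sham (6.16, adjusted p = 0.0210). In these genes, as in fabp10a, sham replicate 1 was the lowest library. They were chosen by their profile in these same libraries, so the shared rise and library order follow from that choice and are a description only.

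Members best known from other tissues had positive log2 fold changes that did not pass the threshold. The muscle and heart form fabp3 (ENSDARG00000023290, chromosome 19) had 98.4 and 58.1 CPM in SBS, against 25.4, 25.4 and 36.3 CPM in sham, a log2 fold change of 1.43 (SE 0.33, edgeR quasi-likelihood adjusted p = 0.0704). The lower SBS library was 1.60-fold above the highest sham library. In SBS replicate 1 it holds 3010 counts, as fabp10a does, but the 2 rows differ in all other libraries. Without SBS replicate 3 fabp3 was called higher (1.76, adjusted p = 0.0157), and without SBS replicate 1 it was at 1.00.

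Of 20 skeletal muscle markers listed 10 were tested, with a median log2 fold change of 2.04. In 6 of them every SBS value exceeded every sham value, and in 1 the reverse held, where all genes tested gave 22.6% and 24.3%. These 6 had at most 4.79 CPM in any library, so the median rests on few reads. The median of the 10 markers lay 2.18 (SBS replicate 1) and 1.37 (SBS replicate 3) log2 units above the mean of sham. This was the same order as in fabp3, which lay at 1.78 and 1.02. Their summed level ran the other way, at 11.1 and 93.6 CPM in SBS, against 57.7 to 62.8 CPM in sham, most of it from the actin gene acta1a in SBS replicate 3 (3.46 and 69.2 CPM in SBS, against 21.5 to 39.2 CPM in sham). Of the list 2 genes (mylpfa and tnnt3b) were called higher, at no more than 4.79 CPM, where 2.49% of all genes tested were called higher. The part of muscle cells in the level of fabp3 was not tested. The 3 cardiac markers tested of 7 summed to 0.653 and 1.51 CPM in SBS, against 1.57 to 7.89 CPM in sham. Smooth muscle markers, 6 tested of 10, had a median log2 fold change of -1.44.

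The gene fabp11a (ENSDARG00000017299, chromosome 19) had 49.9 and 65.1 CPM in SBS, against 16.5, 6.80 and 16.9 CPM in sham, the lower SBS library being 2.96-fold above the highest sham library. Its log2 fold change was 2.10 (SE 0.44, edgeR quasi-likelihood adjusted p = 0.0583), and it was called higher by the likelihood ratio test (adjusted p = 0.000849) and by DESeq2's Wald test (adjusted p = 0.000497). With each library left out the value stayed between 1.82 and 2.33. It was the only member besides fabp10a whose SBS libraries differed less (1.303-fold) than its sham libraries (2.48-fold), apart from the scarce fabp7a.

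Markers of the cells in which mammals express Fabp4 behaved differently from each other. The median of the 7 tested macrophage markers lay 3.17 (SBS replicate 1) and 0.65 (SBS replicate 3) log2 units above the mean of sham. Of these markers 1, mpeg1.2, was called higher, as were 2.49% of all genes tested. The 11 endothelial markers had medians of 0.20 and -0.42, and the 4 adipocyte markers tested had medians of 1.22 and 0.44. For fabp11a these values were 2.01 and 2.39. The part of these cells in the level of fabp11a was not tested.

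Neither brain form was called by the quasi-likelihood test on the 5 libraries. The gene fabp7b (ENSDARG00000034650, chromosome 20) had 56.7 and 15.8 CPM in SBS, against 11.5, 10.9 and 4.38 CPM in sham, with SBS replicate 3 at 1.37-fold above the highest sham library. The log2 fold change was 2.02 (SE 0.65, quasi-likelihood adjusted p = 0.116), or 0.82 without SBS replicate 1 and 2.67 without SBS replicate 3. The likelihood ratio test (adjusted p = 0.0240) and DESeq2's Wald test (adjusted p = 0.0222) called fabp7b higher. In 13 of 17 alternatives fabp7b was not called. Its paralog fabp7a (ENSDARG00000007697, chromosome 17) had 1.31 and 0.950 CPM in SBS, against 1.31, 0.787 and 0.120 CPM in sham, a log2 fold change of 0.60 (SE 0.92, quasi-likelihood adjusted p = 0.701). The groups overlapped for fabp7a, its counts were between 4 and 49 per library, and its sham libraries differed 10.9-fold. Glial and neuronal markers, 12 tested of 14, summed to 37.2 and 80.3 CPM in SBS, against 22.2 to 43.3 CPM in sham. Most of the SBS sum came from the neuronal genes vip (3.14 and 13.7 CPM) and vipb (18.4 and 48.0 CPM). Of the 12 markers 5 had a positive and 7 a negative log2 fold change, with a median of -0.36.

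**Figure D5:**
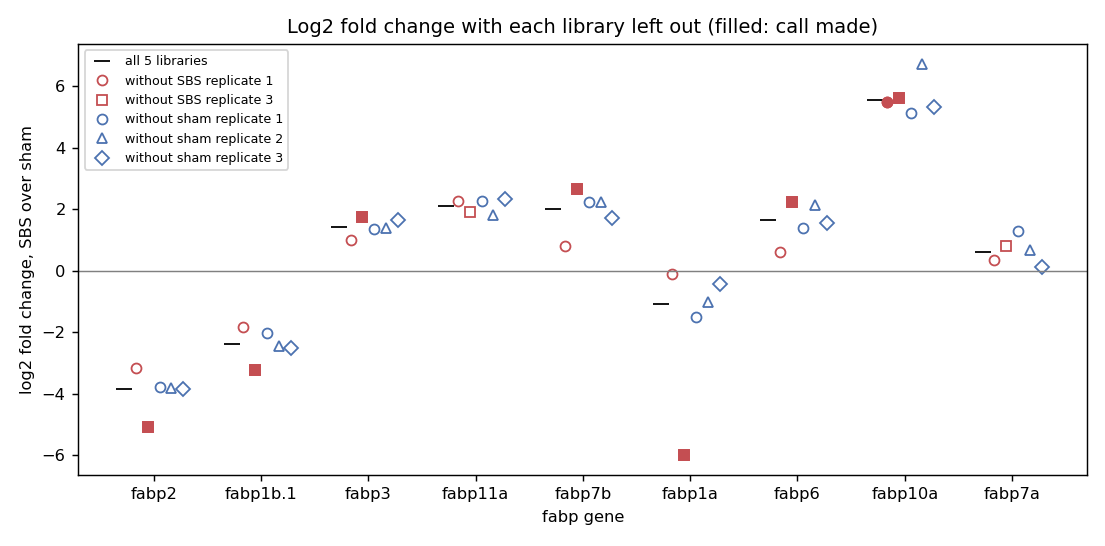
Log2 fold change of SBS over sham (vertical axis) of each fabp gene (horizontal axis) with all 5 libraries and with each library left out in turn, filled where the gene was called. No sign changes, and without SBS replicate 3 the values include fabp2 at -5.09, fabp1b.1 at -3.23, fabp1a at -5.99 and fabp6 at 2.25. Leaving out an SBS library leaves a single one, so filled markers of those fits take the spread within groups from sham alone.

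The SBS libraries differed in opposite directions for different members of the family. In SBS replicate 1 the enterocyte forms fabp2, fabp1b.1 and fabp1a were lower than in SBS replicate 3, by 3.81-fold, 2.64-fold and 61.1-fold. In the same library fabp3, fabp6 and fabp7b were higher than in SBS replicate 3, by 1.69-fold, 3.11-fold and 3.60-fold. The remaining members differed less: fabp11a was lower in SBS replicate 1 by 1.303-fold, and fabp7a and fabp10a were higher by 1.38-fold and 1.098-fold. The absorptive enterocyte markers differed in the same sense as the enterocyte forms. Relative to the sham mean their median log2 level was -2.71 in SBS replicate 1 and -1.296 in SBS replicate 3. Of the 14 tested 0 were called higher and 1 lower, where 2.49% and 2.06% of all genes tested were called. In 10 of the 14 both SBS libraries lay below all sham libraries and in 0 above, where all genes tested gave 24.3% and 22.6%. The log2 fold change was negative for 13 and positive for 1. The gene called lower was pdzk1, a scaffold protein of the brush border. It had 245 and 336 CPM in SBS, against 1993 to 2556 CPM in sham (log2 fold change -3.02, edgeR quasi-likelihood adjusted p = 0.0253).

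Retinoid-binding relatives share the fold of the fatty acid binding proteins, and 7 of 13 listed were tested. The cellular retinol-binding protein rbp2a, an abundant enterocyte gene, had 627 and 2805 CPM in SBS, against 7532, 5544 and 10980 CPM in sham (log2 fold change -2.22, adjusted p = 0.137). Its paralog rbp2b rose, to 9.08 and 18.2 CPM in SBS, against 0, 0.112 and 0.0300 CPM in sham (8.05, edgeR quasi-likelihood adjusted p = 0.0190), a fitted value that rests on very few sham reads. No other relative was called.

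Nuclear receptors and factors that control Fabp genes in mammals were listed as 30 genes, of which 27 were tested. In SBS 0 were called higher and 3 lower, with a median log2 fold change of -0.96, where 2.06% of all genes tested were called lower. Both SBS libraries lay below all sham libraries for 15 of them and above for 3, against 24.3% and 22.6% of all genes. The fatty acid sensor pparaa had 21.6 and 40.7 CPM in SBS, against 145, 169 and 115 CPM in sham (log2 fold change -2.20, edgeR quasi-likelihood adjusted p = 0.0430). The retinoid X receptors rxraa and rxrgb, partners of the PPARs, also fell (-2.43 and -2.48, adjusted p = 0.0293 and 0.0190). The factors with the highest mean level were hnf4a, hnf4g and gata6, with log2 fold changes of -1.89, -1.06 and -1.31 (adjusted p = 0.129, 0.370 and 0.113).

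The 9 genes share a compact structure. In the deposited annotation 8 have 4 exons and fabp1a has 7, and their lengths run between 445 and 802 bases, where the median gene tested has 1879. RefSeq lists 12 fabp genes on the current zebrafish assembly, of which 9 matched rows of the table, and fabp1b.2, fabp4b and fabp10b were not analysed here. The members lie on 8 chromosomes, fabp3 and fabp11a both being on chromosome 19. The libraries were made with a stranded kit, but whether strand was used in counting is not stated, so reads of genes that overlap a member on the other strand cannot be told apart.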

How the data were processed

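Full-thickness proximal intestine of 3 sham and 3 SBS zebrafish was sequenced. Per the authors, reads were checked with FastQC, trimmed with Trimmomatic, aligned with STAR and counted with HTSeq, and the deposited counts are not normalized. The methods name the build danRer7 and the submitters' processing notes GRCz10 (danRer10), so no coordinates are given. Tool versions and any low-count filter applied by the authors are not given in the sources used here. The RPKM that the authors deposited were not used. Per the file headers, the authors also deposited a log2 fold change and average level, a likelihood ratio score, and a p-value with its FDR from edgeR, and none of these was used. Gene lengths are those deposited by the authors.

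The rows of 70 spike-ins, 0.663% to 2.43% of counted reads, stayed out of library sizes, and 20 repeated gene rows were dropped. Genes with at least 10 counts over 5 libraries were tested in R 4.3.3 with edgeR 4.0.16, and alternatives used DESeq2 1.42.0. RUVg was written by hand with 1 factor, with all genes but the 5000 of smallest p as controls. Alternatives were other scalings, filters and tests, each library left out, a replicate block, all 6 columns, halved counts of SBS replicate 1, and no fold change limit. The replicate number is not stated to mark a shared animal or day. Scripts were tested on simulated data. Every fabp row is named, with the 3 nearest profiles to fabp2, fabp6 and fabp10a, the called members of the lists (of the 18 called hepatocyte markers fga alone), and the 3 most abundant of the fat absorption, bile acid and regulator lists. Other genes were named after their values were seen. Members and gene lists were chosen with earlier results of these data known. Sequences of the members were not used here. Libraries were treated as separate fish, which the labels do not state outright. If they are not, p-values measure only the spread between these samples. A result on 1 gene of the lists is not reported here.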

Additional observations from a re-analysis of the deposited data

How the results depend on the processing

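With 2 SBS libraries against 3, the count of calls depended on the test more than on scaling or filters, under which it stayed within 1.5 times. edgeR's quasi-likelihood test called 308 genes higher and 255 lower, among them 1 fabp gene higher and 0 lower. The likelihood ratio test called 1215 and 716 (3 fabp genes higher, 2 lower) and DESeq2's Wald test 1177 and 711 (3 and 2). All 6 columns gave 1183 and 753 (4 and 2), but that fit repeats SBS replicate 1 as if it were a further library. Its calls therefore overstate the replication. RUVg gave 475 and 407 (1 and 1), and RUVg with the likelihood ratio test, chosen after seeing the data, 870 and 738 (2 and 2). With each library left out in turn the counts were 0 to 1299 higher and 0 to 1031 lower, and 0 to 4 and 0 to 3 for the fabp genes. With the replicate block 0 genes were called in either direction, fabp genes included, although 1923 had an unadjusted p under 0.05, and fabp10a then had a log2 fold change of 6.77 (adjusted p = 0.149). The number marks no known pair. Deviations of same-numbered libraries from their group means correlated at -0.0945 and -0.106. These values cannot decide on pairing, since the deviations of 2 SBS libraries mirror each other. Of 153 results on single fabp genes over the alternatives 0 changed sign, 126 kept their side of the threshold, 23 gained a call and 4, all of fabp10a, lost it. The 153 include the main fit with the fold change limit dropped, in which neither sign nor p could change. The likelihood ratio test gave nearly the same log2 fold changes as the main fit. Some of the gained calls come from fits that leave a single SBS library, or from the fit that repeats SBS replicate 1. Halving the counts of SBS replicate 1 changed no fabp call. The differences in the ratios of fabp6 and fabp10a to fabp2 kept their sign with each library left out and with 0.5 reads added. Counts of fabp7a, and of fabp1a in SBS replicate 1, limit what can be said of these genes.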

Other observations

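Genes that flank a fabp gene on the current RefSeq assembly were looked up by name. Of 18 flanking genes 8 had rows in the table, with log2 fold changes between -2.06 and 1.31 and adjusted p between 0.0703 and 0.972 (edgeR's quasi-likelihood test). Beside fabp2, gucy1b3, a guanylate cyclase subunit, had a log2 fold change of 1.31 where fabp2 had -3.83, and beside fabp6, ccnjl had 0.03.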
